A study of Nothobranchius furzeri with 10 samples.

Results

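In muscle of male Nothobranchius furzeri, an African annual fish used in research on ageing, 108 of 26739 gene models had a higher level in each of 5 libraries from exercised samples than in any of 5 libraries from unexercised samples. Exercised samples came from a swim tunnel and unexercised samples had no perturbation. All 10 were males of line 4010 aged 10 weeks carrying Tg(mylz2:egfp,tfam), so the transgene was shared by both groups and does not separate them. In that label, mylz2 is a gene whose zebrafish promoter is active in fast muscle, and egfp encodes a fluorescent reporter. The third part, tfam, encodes a factor that packages mitochondrial DNA and takes part in its transcription. As the model is a transgenic line, neither group stands for wild-type muscle. The labels do not say whether samples came from separate animals, so spreads and p-values describe these samples only.

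Fish trunk muscle is mostly fast glycolytic fibres, with a smaller amount of slow oxidative fibres that power steady swimming. In vertebrate muscle, contraction raises calcium and depletes energy stores, and both signals change transcription: early transcription factors rise first, followed by genes of metabolism, stress protection, vessel growth and matrix. Endurance activity is known above all for raising mitochondrial and oxidative genes through the PGC-1 coactivators. Which of these the 108 belong to was not analysed here, because the identifiers matched 0 of 38438 genes in the reference table used here and the tables give them no names. For the same reason the muscle label could not be checked against marker genes, and tfam and egfp themselves could not be read. In RNA of whole tissue, more cells of a type and more RNA per cell cannot be told apart, which holds for each value below.

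The members were chosen on the contrast between the groups, and their levels in that contrast are therefore given as a description. Counts were divided by median-of-ratios size factors and scaled by the mean library total to CPM, the usual unit of counts relative to sequencing depth. Of 8568 gene models with a mean of at least 5 normalised CPM over the 10 libraries, the 100 with the highest means (1085 CPM and above) were left out, and 8468 could be chosen. In 153 of these, or 1.81%, the lowest exercised library lay above the highest unexercised library. The ratio of group means was at least 1.5 in 108 of the 153, which is 1.28% of those that could be chosen, and below 1.5 in the other 45. The mirrored rule, with every exercised library below every unexercised one, found 67 gene models. No gene model among the 100 most abundant had every exercised library above every unexercised library. A further 61 gene models met the rule but for a mean below 5 CPM.

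Total counts ranged from 25927913 to 40433810 per library. The lowest raw count of any member in any library was 48, and the median over members of their lowest count was 203. In each group 1 library, exercised replicate 3 and unexercised replicate 4, stood apart. Their 10 most abundant gene models took 25.8% and 24.2% of the counts, against 39.6% to 43.9% in the other 8 libraries, and their size factors were 1.465 and 1.504, against 0.756 to 1.14. Membership rests on them through the rule, so results are given below with and without this pair.

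**Figure D1:**
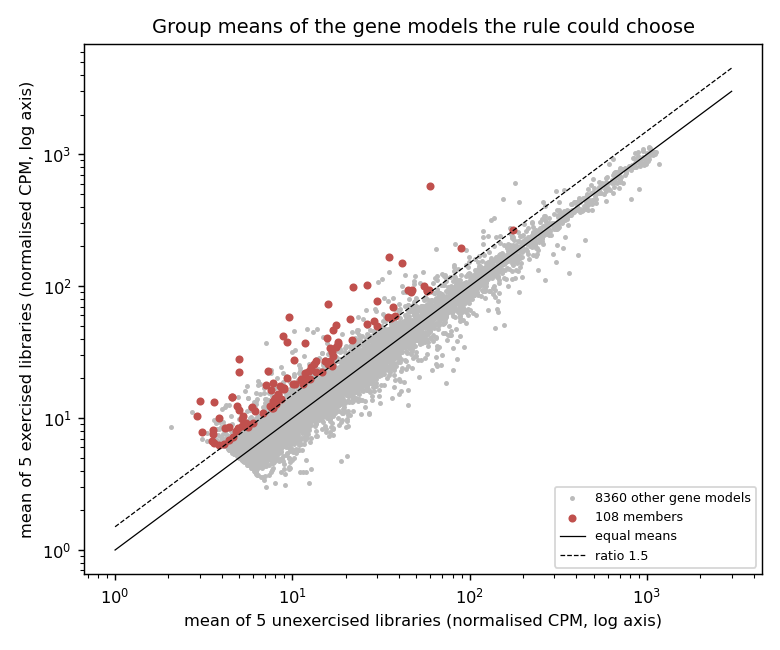
Mean normalised CPM of the 5 exercised libraries against that of the 5 unexercised libraries, on log axes, for the 8468 gene models that could be chosen. The 108 members (red) lie on or above the dashed line at a ratio of 1.5 and run along the range of abundance, with 1 member far above the rest of its level at a ratio of 9.75; grey points above the dashed line are gene models whose groups overlapped.

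Most members differed by less than 2-fold. The ratio of exercised to unexercised means had a median of 1.90 (quartiles 1.66 and 2.52) and ran from 1.5 to 9.75. The ratio lay between 1.5 and 2 in 66 members, between 2 and 3 in 24, between 3 and 4 in 8, and at 4 or above in 10. The gap between the groups was narrower, as the lowest exercised library exceeded the highest unexercised library by a median of 1.13-fold. That gap was at least 1.5-fold in 7 members and at least 1.3-fold in 18.

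The 2 members named here are the one with the widest gap between groups and the most abundant one. Nfu_g_1_000946, with the widest gap, had 96.7, 84.8, 62.8, 82.2 and 42.6 normalised CPM in exercised replicates 1 to 5 and 24.0, 11.6, 10.9, 19.1 and 14.2 CPM in unexercised replicates 1 to 5. Its lowest exercised library, replicate 5, was 1.78-fold above its highest unexercised library, replicate 1. The means were 73.8 ± 21.3 and 15.9 ± 5.51 CPM (SD, n = 5 each), a ratio of 4.63. It was 1 of 7 members that were highest in exercised replicate 1.

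Nfu_g_1_022149, the most abundant member, also had the largest ratio, 9.75. It had 441.2, 804, 99.0, 1110 and 441 normalised CPM in exercised replicates 1 to 5, and 56.6, 63.8, 89.8, 39.7 and 47.1 CPM in unexercised replicates 1 to 5. Exercised replicate 3 at 99.0 CPM was close to the highest unexercised library at 89.8 CPM, while the other 4 exercised libraries were each far above it. The means were 579 ± 388 and 59.4 ± 19.3 CPM (SD, n = 5 each). Per kilobase of gene model, its level was 88.8 ± 59.5 CPM with exercise and 9.11 ± 2.96 CPM without, against 23.6 ± 6.79 and 5.09 ± 1.76 CPM for Nfu_g_1_000946 (SD, n = 5 each). Without the pair that stood apart, the ratio was 10.9 for Nfu_g_1_022149 and 5.05 for Nfu_g_1_000946.

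Other members are given by rank. The member with the second widest gap had 22.0, 82.3, 20.3, 118 and 50.8 CPM in exercised replicates 1 to 5 and at most 12.1 CPM in the unexercised libraries. Its exercised libraries differed among themselves by 5.82-fold, with replicates 4 and 2 highest and replicates 1 and 3 lowest. A member with a mean of 16.4 CPM and the third largest ratio, 5.59, had the same order, with 11.9, 41.5, 8.72, 53.3 and 23.6 CPM in exercised replicates 1 to 5 and 3.60 to 6.58 CPM without exercise. The third most abundant member had 127.6, 237, 142, 266 and 196 CPM in exercised replicates 1 to 5 and 78.6 to 98.3 CPM in the unexercised libraries, and here too replicates 4 and 2 were highest.

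A flatter kind of member was present as well, and the examples in this paragraph were chosen after their values were seen. The member with the smallest exercised spread had 13.9, 14.8, 13.9, 14.7 and 13.9 CPM in exercised replicates 1 to 5 and 6.51 to 8.87 CPM in the unexercised libraries. Its exercised libraries differed by 1.07-fold at most, and its ratio was 1.78. The second most abundant member had 241, 265, 235, 288 and 303 CPM in exercised replicates 1 to 5 and 150 to 198 CPM in the unexercised libraries, a ratio of 1.52. Exercised replicate 3 stood at 0.970 and 0.858 of the mean of the other exercised libraries in these members.

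**Figure D2:**
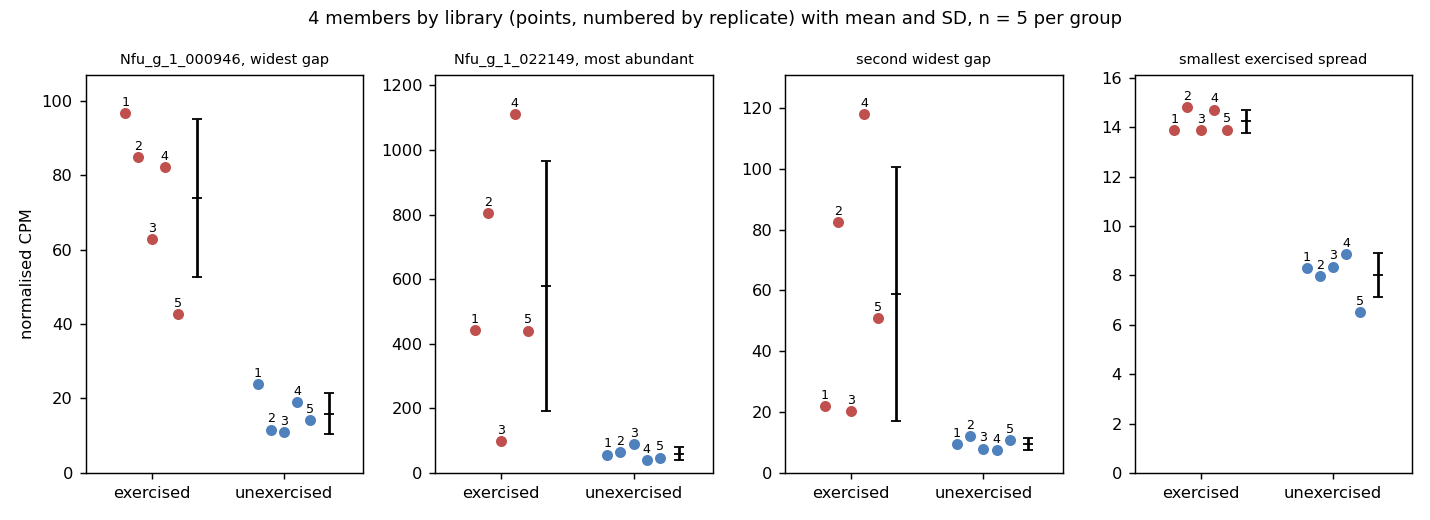
Normalised CPM of 4 members in each library, with points numbered by replicate and bars for mean and SD (n = 5 per group). The exercised libraries differ by 2.27-fold in the widest-gap, 11.2-fold in the most abundant and 5.82-fold in the second-widest-gap member, while the member with the smallest exercised spread holds 13.9 to 14.8 CPM in all 5 exercised libraries, above 6.51 to 8.87 CPM in the unexercised ones.

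At the edges of the rule, the member with the smallest ratio had 1.5 and the gene model just outside had 1.49. The narrowest gap inside was 11.73 CPM in the lowest exercised against 11.72 CPM in the highest unexercised library, and just outside it was 49.2 against 49.6 CPM. The lowest mean inside was 5.04 CPM and the highest outside 4.95 CPM.

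The exercised libraries did not carry the members equally. Exercised replicate 4 was the highest of the 5 exercised libraries in 77 of 108 members (71.3%), against 17.8% of the 8468 gene models that could be chosen. Replicate 2 was highest in 19 members (17.6% against 9.80%) and replicate 1 in 7 (6.48% against 24.6%). Replicate 5 was highest in 4 (3.70% against 16.2%) and replicate 3 in 1 (0.926% against 31.6%). At the other end, exercised replicate 3 was lowest in 75 members (69.4% against 47.3%). Replicate 1 was lowest in 23 (21.3% against 21.0%) and replicate 5 in 10 (9.26% against 12.3%), each near its share over all. Neither replicate 2 nor replicate 4 was lowest in any member, against 9.15% and 10.2% of all. Replicates 4 and 2 together held the top places in 86 members (79.6% against 11.3%). The full order of replicates 4, 2, 5, 1 and 3, from high to low, was found in 45 members (41.7% against 3.78%). The rule required each exercised library to exceed the unexercised ones but set no order among them. It can still favour some orders, because no overlap depends on the lowest exercised library and the ratio is raised by the highest. The shares over all gene models are therefore not a matched control. All these shares are descriptions without a test, and members are not independent of each other.

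The order was also read with exercised replicate 3 set aside, in the same members and on the same values. These shares therefore largely restate those above and give no separate support. Of the 4 other exercised libraries, replicate 4 was highest in 77 members (71.3% against 26.1% of those that could be chosen) and replicate 1 was lowest in 78 (72.2% against 34.6%). Replicates 4 and 2 were the upper pair of these 4 in 89 members (82.4% against 18.3%). Totals were 32098673 counts in exercised replicate 4 and 40433810 in replicate 2, against 31524448 in replicate 1 and 37390210 in replicate 5. The part of depth in this order was not tested.

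**Figure D3:**
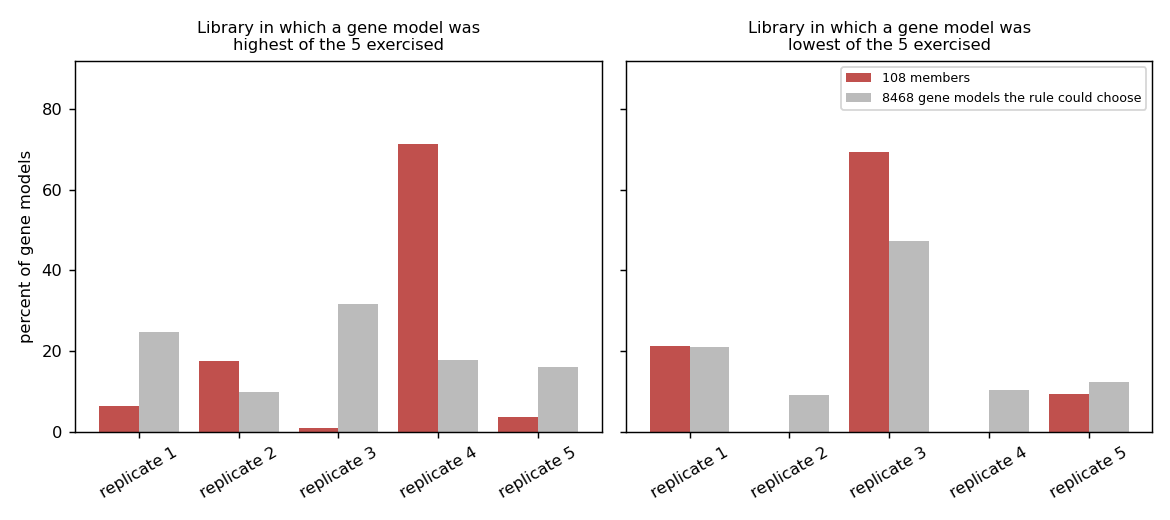
Percent of gene models for which each exercised library was the highest (left) or the lowest (right) of the 5, for the 108 members (red) and the 8468 gene models that could be chosen (grey). Among members, replicate 4 was highest in 71.3% and replicate 3 lowest in 69.4%, against 17.8% and 47.3% of all that could be chosen.

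Relative to each member's unexercised mean, the median member stood at 2.37-fold in exercised replicate 4, 2.21-fold in replicate 2, 1.77-fold in replicate 5, 1.61-fold in replicate 1 and 1.47-fold in replicate 3. The corresponding medians over all gene models that could be chosen lay between 0.900 and 1.0 in these 5 libraries. At least 2-fold was reached by 81 members in replicate 4 and 69 in replicate 2, but by 38 in replicate 5, 29 in replicate 1 and 9 in replicate 3. In the unexercised libraries, the median member stood between 0.915 and 1.04 of its unexercised mean, and no member reached 2-fold in any of them.

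The members were also counted by class of ratio, with no test between classes. Exercised replicate 4 was highest in 45 of 66 members with a ratio of 1.5 to 2 (68.2%), in 17 of 24 at 2 to 3 (70.8%) and in 15 of 18 at 3 and above (83.3%). Exercised replicate 3 was lowest in 62.1%, 75% and 88.9% of the same classes. In the class of 3 and above, the median member stood at 6.49-fold of its unexercised mean in replicate 4, 5.398-fold in replicate 2, 3.61-fold in replicate 5, 2.97-fold in replicate 1 and 1.85-fold in replicate 3. A ratio of means is raised by the highest libraries, so a larger spread and a larger ratio are not independent.

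**Figure D4:**
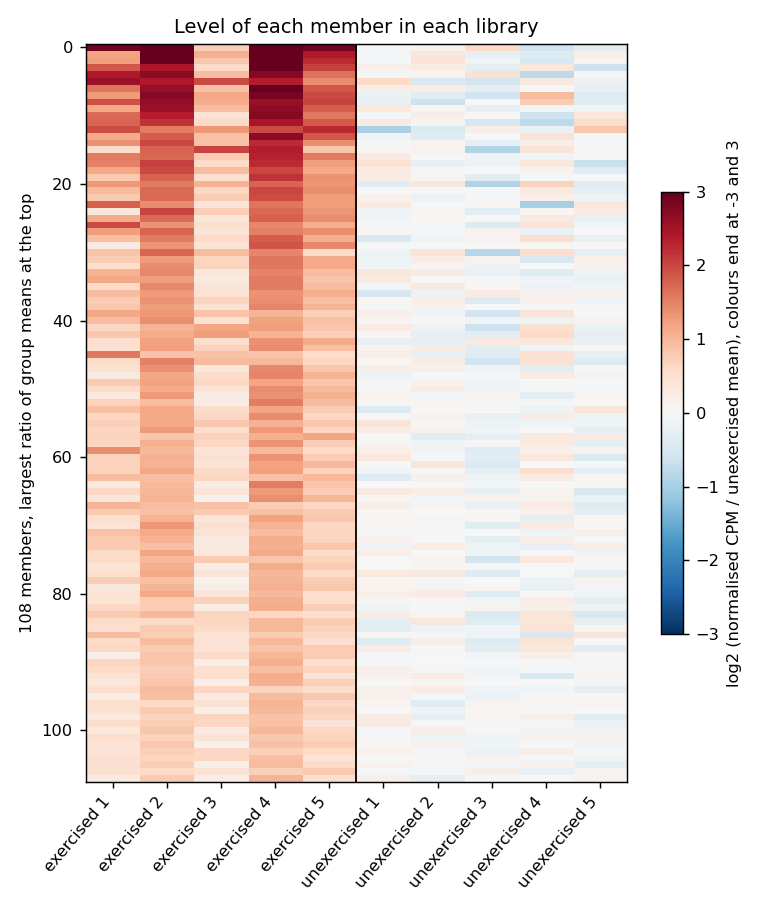
Level of each of the 108 members (rows, largest ratio at the top) in each library (columns), as log2 of normalised CPM over the member's unexercised mean. Exercised replicates 4 and 2 are the darkest columns and exercised replicate 3 the palest of the exercised group, with medians of 2.37-fold, 2.21-fold and 1.47-fold.

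Summed over the 108 members, the level was 3847, 5274, 2802, 6169 and 4098 normalised CPM in exercised replicates 1 to 5, and 1908, 1903, 1821, 1858 and 1880 CPM in unexercised replicates 1 to 5. The sums of the unexercised libraries lay within a narrow band, while those of the exercised libraries ranged widely. The members were chosen on this contrast, so the difference in range is given as a description. The means were 4438 ± 1307 and 1874 ± 35.7 CPM (SD, n = 5 each). Without Nfu_g_1_022149 the means were 3859 ± 921 and 1814 ± 48.1 CPM (SD, n = 5 each), so most of the summed level lay in the other members. As a share of each library's own counts, the members took 0.291% to 0.559% in exercised and 0.161% to 0.328% in unexercised libraries. On that scale the groups overlapped, because unexercised replicate 4 had 0.328% and exercised replicate 1 had 0.291%.

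Spread within the exercised group also differed among members. The highest exercised library exceeded the lowest by less than 1.5-fold in 22 members, by 1.5-fold to 2-fold in 45, by 2-fold to 3-fold in 25 and by 3-fold or more in 16. The median was 1.85-fold, against 2.09-fold over all gene models that could be chosen. Without exercised replicate 3, it was 1.62-fold in members and 1.41-fold over all. In the unexercised group, the median spread was 1.48-fold in members and 1.97-fold over all with 5 libraries, and 1.34-fold in both without unexercised replicate 4. A gene model with a wide spread in either group is less likely to meet a rule of no overlap. A ratio of means is raised by the highest exercised libraries. The comparisons with all libraries and with fewer therefore both follow in part from the rule.

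In the pair that stood apart, the members differed less than in the other libraries. The ratio of exercised replicate 3 to unexercised replicate 4 had a median of 1.37 over the members, against 2.05 for the means of the other 4 libraries of each group. Over all gene models that could be chosen these medians were 0.984 and 1.01. The ratio in the pair was at least 1.5 in 36 members (33.3%), against 4.84% of all. The rule required exercised replicate 3 above unexercised replicate 4 in every member, so nothing is read from the comparison with all gene models. Exercised replicate 3 stood at a median of 0.683 of the mean of the other exercised libraries in the members and at 0.855 over all. Unexercised replicate 4 stood at 1.03 of the mean of the other unexercised libraries in the members and at 0.881 over all. It was the highest unexercised library in 43 members (39.8% against 34.5% of all gene models that could be chosen).

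The size of the set changed most when 1 or both libraries of the pair were left out. No overlap is easier to meet with fewer libraries, so these counts are not of the same strictness as the 108. Applied without the pair, the rule chose 390 gene models, 5.16% of 7561 that could then be chosen, and 191 in the mirrored direction. The 390 held 103 of the 108 members, which is 95.4% of the members and 26.4% of the 390. In the pair left out, 313 of the 390 (80.3%) were higher in exercised replicate 3 than in unexercised replicate 4, against 46.9% of all gene models that could be chosen. Their median ratio in the pair was 1.24, against 1.86 in the 8 libraries that chose them and 0.986 in the pair over all. The 103 members among them had been chosen with exercised replicate 3 above unexercised replicate 4. Size factors of the 8 libraries were used to choose the 390, and those of all 10 libraries to read the ratios. The values in the pair are therefore descriptions, and those over all gene models are not a matched control. Leaving out exercised replicate 3 alone gave 339 gene models, unexercised replicate 4 alone 254 and exercised replicate 1 alone 177, and leaving out each of the other 7 gave 91 to 133. Exercised replicate 4 was the highest of 4 in 263 of the 390 (67.4%), against 25.7% of the 7561.

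The members also depended on the scaling. With library totals in place of size factors, the rule chose 60 gene models, and 18 of them were members. On that scale unexercised replicate 4 was the highest unexercised library in 103 of the 108 members (95.4%), against 72.0% of all gene models that could be chosen, and the median ratio of group means over the members was 1.78. Without the pair that stood apart, 90 of the 108 members (83.3%) had every exercised above every unexercised library with library totals, against 411 of the 8468 (4.85%). The members were chosen for a lack of overlap in these libraries, so nothing is read from that count.

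Near misses were also counted by library, which repeats leaving out 1 library on the same values and gives no separate support. A ratio of at least 1.5 was found in 417 gene models whose groups overlapped, and in 277 of these the overlap vanished when 1 library was set aside. That library could be exercised replicate 3 in 167 gene models, unexercised replicate 4 in 67 and exercised replicate 1 in 48, with 0 to 14 for each of the other 7. A gene model may be counted under more than 1 library. Over all gene models that could be chosen, exercised replicate 3 was lowest of its group in 47.3% and exercised replicate 1 in 21.0%. Unexercised replicate 4 was highest of its group in 34.5% of them.

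The rule was next applied to 9 libraries at a time, and the chosen gene models were read in the library left out. With exercised replicate 4 left out, all 91 chosen gene models were above the unexercised mean in it, and all were above every unexercised library, against 48.5% and 22.3% of all that could be chosen. Exercised replicate 2 lay above the unexercised mean in 105 of 106 (99.1% against 47.5%) and exercised replicate 5 in 109 of 111 (98.2% against 48.9%). Exercised replicate 1 did so in 144 of 175 (82.3% against 49.6%). Exercised replicate 3 did so in 178 of 345 (51.6% against 41.1%), with a median of 1.02-fold of the unexercised mean. It lay above every unexercised library in 110 of the 345 (31.9% against 16.5%). Unexercised replicate 4 lay below every exercised library in 110 of 260 (42.3% against 27.8%). A chosen gene model whose left-out library also cleared the other group had no overlap in all 10 libraries. Counts of such gene models therefore largely restate membership, and nothing is read from them. They made up all 91 chosen gene models for exercised replicate 4, 103 of 106 for replicate 2 and 105 of 111 for replicate 5. In these libraries the shares above the unexercised mean therefore largely restate membership too.

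Among unexercised libraries, replicates 2, 3 and 5 lay below the exercised mean in each of 121, 115 and 119 chosen gene models. Over all gene models that could be chosen, these shares were 55.2%, 50.8% and 57.0%. Unexercised replicate 1 lay below the exercised mean in 131 of 133 (98.5% against 53.6%). Unexercised replicate 4 did so in 160 of 260 (61.5%), against 59.8% of all gene models that could be chosen. For unexercised replicates 1, 2, 3 and 5, 82.7% to 93.9% of the chosen gene models lay below every exercised library. Their shares therefore largely restate membership. The libraries of the other group had taken part in the choice, which favours a difference from them. All these shares are therefore descriptions, and the share over all gene models is not a matched control. Normalisation used all 10 libraries.

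**Figure D5:**
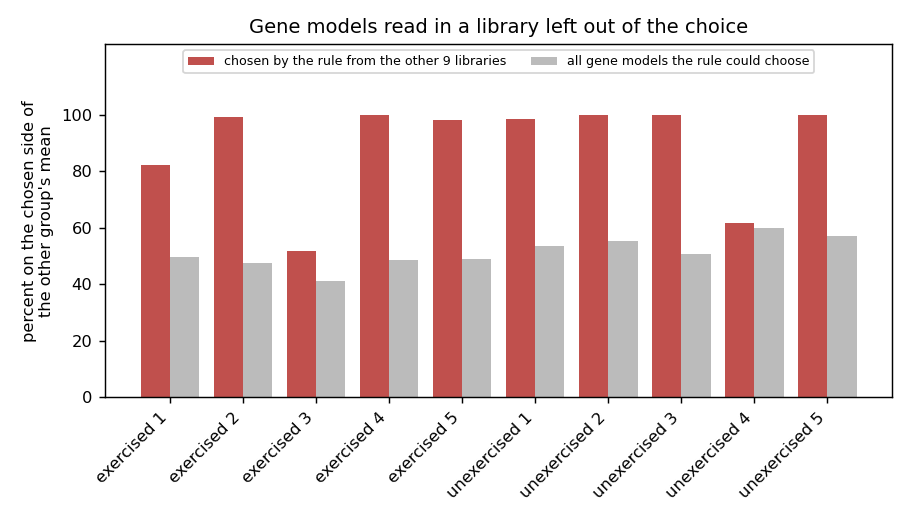
For each library, the percent of gene models chosen by the rule from the other 9 libraries (red) whose value in the left-out library lay on the chosen side of the other group's mean, beside all gene models that could be chosen (grey). The share was 98.2% to 100% in 7 libraries, 82.3% in exercised replicate 1, 61.5% in unexercised replicate 4 and 51.6% in exercised replicate 3. In those 7 libraries, 82.7% to 100% of the chosen gene models cleared every library of the other group. Their shares therefore largely restate membership.

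In abundance and length the members lay near the gene models they were drawn from. Their mean level had a median of 15.3 normalised CPM (quartiles 8.81 and 30.8), against 15.8 CPM (quartiles 8.80 and 33.6) over the 8468. When the 8468 were divided into 4 equal classes by mean level, 27, 28, 27 and 26 members fell in them from low to high. A mean of 100 CPM or more was found in 4 members. All 108 had a length, with a median of 3550 bases (quartiles 2367 and 5344), against 3340 bases (quartiles 1792 and 5574) over the 8468 and 4353 bases in the 67 gene models of the mirrored rule. Per kilobase, the median mean level was 5.57 CPM in the members and 5.28 CPM over the 8468. None of these differences was tested.

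Across the whole table, edgeR's quasi-likelihood test of all 10 libraries called none of the 108 members, and 0% of 15337 gene models, at a Benjamini-Hochberg adjusted p under 0.05. The members' adjusted p-values in that test ran from 0.0753 to 0.244. At an unadjusted p under 0.05 it found 108 of 108 members higher, against 5.95% of all gene models tested in that direction, and 9.53% (1461 gene models) in either direction. With the same libraries, DESeq2 called 106 members higher (1.81% of all) and limma voom with quality weights called 108 (7.18% of all). Without the pair that stood apart, edgeR called 107 members (3.96% of all higher). The rule used this contrast, so nothing is read from these counts. All 108 members passed the filter on low counts.

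The fitted log2 fold change had a median of 0.92 over the members and -0.02 over all gene models tested, and without the pair 1.03 and -0.01. For Nfu_g_1_000946 it was 2.21 ± 0.295 (SE; edgeR adjusted p = 0.0753), and for Nfu_g_1_022149 3.28 ± 0.548 (SE; edgeR adjusted p = 0.0753). Without exercised replicate 3, the fold change of Nfu_g_1_022149 was 3.54 on the log2 scale and passed the threshold (edgeR adjusted p = 0.0105), as did that of Nfu_g_1_000946 at 2.24 (edgeR adjusted p = 0.0168). Over all alternatives the adjusted p ran from 8.21e-09 to 0.251 for Nfu_g_1_000946 and from 6.42e-07 to 0.275 for Nfu_g_1_022149. Both were chosen on this contrast, so these values describe them and are no separate test.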

How the data were processed

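Libraries of 10 muscle samples were made from total RNA with an Illumina TruSeq kit, per the labels. Tools named in the submitters' processing notes are featureCounts 1.4.6-p4, STAR 2.4.1d and bcl2fastq 1.8.4. Build, annotation and strand setting are not given in the sources used here, and gene models that overlap, lie antisense or share near-identical sequence may share reads. Groups follow the source label, and replicates are numbered within groups.

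The deposited counts are whole-number read counts per gene model. The RPKM deposited by the authors fitted 1 length per gene model only with library totals running down the rows, so they served only to work out lengths; levels per kilobase were recomputed from the counts. Counts of the 20 pairs of libraries within groups differed by a chi-square of at least 27.6 per degree of freedom, so no library was a copy of another in its group.

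Members, rule and tests were chosen with earlier results of these data known. The rule for naming took the member with the widest gap and the most abundant one; without names, only these 2 identifiers are printed. The whole table was fitted in R 4.3.3 with edgeR 4.0.16 (quasi-likelihood, robust, TMM factors, filterByExpr with a minimum count of 10 and a minimum total of 15). Standard errors were approximated as the size of the log2 fold change over the square root of F. Alternatives used DESeq2 1.42.0, limma 3.58.1 voom, other scaling, no filter and fewer libraries. The edgeR, DESeq2 and limma voom fits were tested on simulated counts. Expected counts there differed between libraries only by total and by changes put into the exercised group. No simulated library was thus made to stand apart as the pair here does. The outcome is not given here, and nothing is read from it. Library totals ran from 25927913 to 40433810 counts, which limits counting error; reads without molecular identifiers are not independent molecules.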

Additional observations from a re-analysis of the deposited data

Results flagged for a closer look

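In unexercised replicate 4 the members took 0.328% of the counts, far from the 0.161% to 0.181% of the other 4 unexercised libraries. On the scale of normalised CPM the same library, at 1858, lay within the range of its group. The 2 scales differ by its size factor, 1.504, and its total of 26869017 counts, so the share reflects these as well as the members. The flagged share was 1 of 26 checks of a group for a library far from the rest, and chance gives about 1 in 20.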

How the results depend on the processing

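The median log2 fold change of the members kept its sign and stayed within the spread of exercised libraries in all 16 alternatives. It lay between 0.84 and 0.97 with 1 library left out. The spread used was the SD over exercised libraries of the median log2 level of members, 0.295. The members were chosen for this direction and for a ratio of at least 1.5, and the alternatives reuse the same counts. Nothing is therefore read from the kept sign or the kept size. The 108 members became 60 with library totals only, 42 with a ratio of at least 2, and 390 without exercised replicate 3 and unexercised replicate 4, and ranged from 91 to 339 with 1 library left out. TMM factors gave 123, of which 106 were members. Scaling CPM by the mean total of normalised counts, added after the data had been seen, gave 105. Members called ranged from 0 to 69, and all gene models called from 0 to 244, with 1 library left out; without exercised replicate 3 they were 69 and 244 and without unexercised replicate 4 they were 25 and 84. They were 2 and 2 with library totals only, 106 and 413 with DESeq2, and 108 and 1823 with limma voom with quality weights. Without both libraries they were 107 and 964. Counts over all gene models are in either direction, of 15337 tested with all 10 libraries and 15200 without both. The number tested with 1 library left out is not given here, so those counts have no share over all beside them. In the higher direction, DESeq2 called 1.81% of all tested, limma voom 7.18%, and edgeR without both libraries 3.96%. As the members were chosen on this contrast, nothing is read from these counts. The 2 named members passed the threshold with DESeq2 (log2 fold change 2.21 and 3.28), limma voom (2.28 and 3.45) and without both libraries (2.33 and 3.44); with 1 library left out Nfu_g_1_000946 lay between 2.09 and 2.396 and Nfu_g_1_022149 between 2.91 and 3.54. The share of chosen gene models on the chosen side in a left-out library moved by less than its spread under both alternatives. That share largely restates membership for most libraries, so nothing is read from it. The causes were not tested. No paired analysis was possible because the labels give no replicate numbers shared by the groups. The lowest count of any member was 48, in a set whose rule asks for a mean of at least 5 CPM.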
